A study of Mus musculus with 4 samples.

Results

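The cells described here are muscle stem cell progeny that carried Pax7 RNA, had little Myog RNA and showed little or no RNA of 3 cycle genes. They were chosen by measured values, with the same limits in all 4 libraries. Pax7 had to be above 0, Myog below 7, Top2a and Mki67 equal to 0, and Pclaf below 7 on the deposited log2(CPM + 1) scale, where CPM is a cell's count of unique molecules (UMIs) scaled to a common total and 7 corresponds to 127 CPM. In all, 628 of 5913 cells met these limits. They are called the members below, and the remaining cells are called the other cells.

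Wild-type C57BL/6 mouse muscle stem cells, from skeletal muscle, were cultured for 7 days on polydimethylsiloxane, a silicone rubber, and then measured by droplet-based single-cell RNA sequencing from the 3′ end. The 4 groups were young cells on a soft (12 kPa) substrate, young cells on a stiff (29 kPa) substrate, aged cells on the soft and aged cells on the stiff substrate. Each group was 1 library, and the labels used here state neither the ages nor how many mice gave the cells. A difference between age or stiffness groups therefore cannot be told apart from a difference between libraries or between the mice behind them. Ratios are given with no test, and all intervals are 95% intervals that cover counting error only.

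Pax7 is the paired-box transcription factor that marks muscle stem cells, the reserve cells that lie under the basement membrane of the muscle fibre and repair it. After activation these cells express Myod1, divide, and either induce Myog and the contractile genes on the way to becoming myocytes, or leave the cycle while keeping Pax7, a path linked to Notch signalling and to self-renewal. In culture, both kinds of progeny are found side by side.

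The members made up 13.0% of cells in young soft (177 of 1360, exact binomial interval 11.3% to 14.9%) and 13.8% in young stiff (205 of 1481, 12.1% to 15.7%). They made up 8.85% in aged soft (118 of 1333, 7.38% to 10.5%) and 7.36% in aged stiff (128 of 1739, 6.18% to 8.69%). Both aged shares were below both young ones with no overlap of the intervals, while within either age the soft and stiff intervals overlapped. When every cell was thinned to 10000 UMIs, which removes differences in depth, the shares were 12.3%, 12.2%, 8.32% and 6.91% in the same order. The Pax7-positive cells with Myog below 7 that failed a cycle limit were 23.5%, 20.8%, 9.23% and 6.095% of cells, and cells with Myog at 7 or more, called Myog-high, were 61.3%, 62.3%, 79.7% and 84.8%. Because these are shares of a whole, a lower share does not say that there were fewer such cells.

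**Figure D1:**
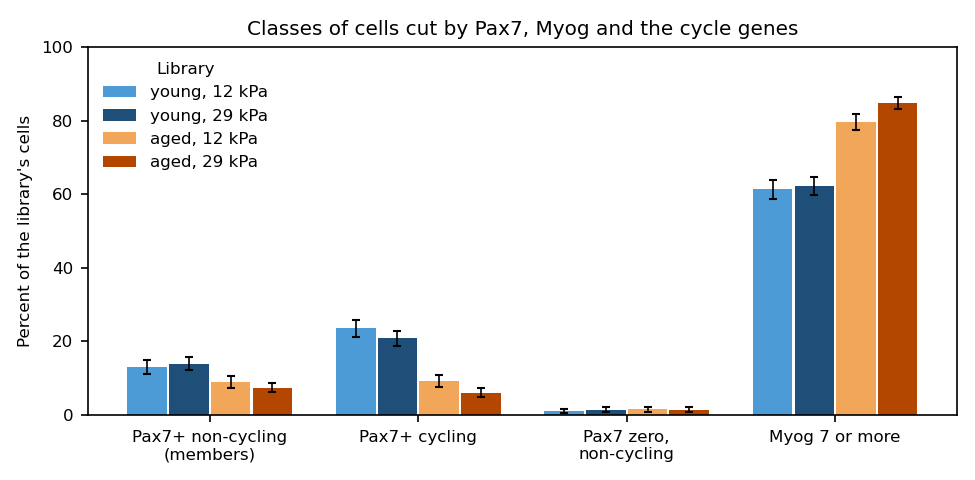
Percent of each library's cells in 4 of the 5 classes cut by Pax7, Myog and the cycle genes (bars, with exact 95% binomial intervals); 56 cycling cells with Pax7 at 0 are not drawn. The aged bars of the members (8.85% and 7.36%) lie below the young bars (13.0% and 13.8%), and the aged bars of Myog-high cells lie above the young ones.

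The Myog and Pax7 limits set the edges of the class. Among the members, 456 had no Myog UMI and 172 had some, 47 lay between 6 and 7 on the log2 scale, and 39 otherwise eligible cells lay between 7 and 8 and were left out. The highest Myog value inside was 6.98 and the lowest outside was 7.04. A single Pax7 UMI carried 99 members over the limit, 109 had 2 and 420 had 3 or more, up to 17. Members held a median of 25874, 20980, 21963 and 22760.5 UMIs, given for young and then aged members, each with soft before stiff, as is every set of 4 values below, against 38733, 31256.5, 35844 and 38922 in Myog-high cells. Over all cells the libraries held 44004649 to 68244862 UMIs, and 1 cell barcode occurred in both young soft and aged stiff.

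Genes that the limits did not use are described next. They were chosen with earlier results of these data known, and 4293 of the 5285 other cells were Myog-high. They are therefore no independent check of the label. Myf5, the myogenic factor of committed progenitors, averaged 294, 219, 222 and 221 CPM in the members. Its log2 ratio to the other cells was 1.80, 1.79, 2.10 and 2.24, where 5 CPM was added to both sides here and below, which understates the difference of low genes. Fgfr4, a fibroblast growth factor receptor, stood at 86.1, 90.9, 139 and 148 CPM, with log2 ratios to the other cells of 0.69, 0.74, 1.48 and 1.83. Serpine2, a secreted protease inhibitor, stood at 382, 351, 595 and 581 CPM, with log2 ratios of 1.89, 1.98, 2.80 and 3.18. All 3 were higher in members than in the other cells of every library, and both aged libraries lay above both young ones in Fgfr4 and Serpine2. Myog-high cells were 834 of 1183, 922 of 1276, 1062 of 1215 and 1475 of 1611 of the other cells. Ratios to the other cells thus have an unlike reference at the 2 ages, here and below.

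Cycle genes outside the limits were low in the members but not at 0. At 10000 UMIs per cell, Ccnb1, the mitotic cyclin, had a UMI in 2.31%, 3.98%, 1.71% and 2.36% of members, against 45.3%, 53.6%, 45.5% and 43.4% of Pax7-positive cycling cells. Mcm5, a subunit of the replicative helicase, had one in 8.67%, 9.95%, 5.13% and 5.51% of members, against 60.6%, 61.0%, 34.96% and 45.3% of Pax7-positive cycling cells and 7.45%, 6.33%, 2.75% and 3.53% of Myog-high cells. The members lay near the Myog-high cells and far below the cycling cells. Myod1 stood at 654, 758, 753 and 649.9 CPM in members and at 679.8, 778, 706 and 632 CPM in Pax7-positive cycling cells, so the 2 classes carried it at like levels. Cd34, a marker of stem cells in resting muscle, stood at 0.744, 0.981, 0.913 and 0.381 CPM in members.

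Some defining markers of other cells in muscle were at 0, whereas the lists of pericyte and of fibroblast genes were not low throughout. Cdh5 of endothelium, Ptprc of leukocytes, Tnmd of tendon and Lum of fibroblasts had no UMI in any member. The 6 endothelial genes found in the tables summed to between 1.43 and 3.55 CPM, the 11 leukocyte genes to between 4.36 and 12.9 CPM, the 7 Schwann cell genes to between 14.2 and 38.5 CPM and the 6 tenocyte genes to between 34.0 and 42.3 CPM. The 8 pericyte and smooth muscle genes, among them Des, which muscle also expresses, summed to between 1924 and 2156 CPM, below the 3418 to 5394 CPM of the other cells. Des made up most of that sum, at 1733 CPM in members without Myog RNA and 1900 CPM in those with it, averaged over the 4 libraries. The sum thus hides the rest of the list. Of 5 genes that could be compared, 2 were at least 2 times higher than in the other cells of all 4 libraries and 1 was lower. Their median log2 ratio was 1.12, beside 0.17 over all genes tested. The 9 genes of fibroblasts and fibro-adipogenic progenitors summed to between 892 and 932 CPM, against 154 to 280.4 CPM in the other cells. Col3a1 (579, 549, 402 and 385 CPM) and Gsn (334, 334, 484 and 483 CPM) made up most of that sum, and Pdgfra, the receptor that defines the fibro-adipogenic progenitor, stood at 0.405, 0.361, 2.28 and 0.804 CPM. Only 3 genes of this list could be compared, and all 3 were higher than in the other cells by their median ratio. Of these, 2 were at least 2 times higher in all 4 libraries, and the median log2 ratio was 1.94.

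Against the other cells, the members were rich in RNA of secreted and matrix proteins and nearly free of contractile RNA. Pax7-positive cycling cells shared most of the matrix and contractile part of this profile, as given below. Because the limits were set on these same cells, the values that follow describe what the limits selected and carry no test. Of 7178 genes with at least 20 CPM in either class of any library, 424 (5.91%) were higher in the members of each of the 4 libraries by 2 times or more, and 472 (6.58%) were lower by as much. Levels are means over cells of CPM.

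Apoe, the lipid carrier, led the higher genes. Its mean in members was 1034, 713, 303 and 403 CPM, against 28.5, 40.5, 26.0 and 10.2 CPM in Myog-high cells. The young libraries were high and the aged ones low. Not every member carried it: with 10000 UMIs per cell, 51.4%, 51.2%, 24.8% and 29.9% of members had an Apoe UMI, against 6.37%, 7.10%, 4.56% and 4.75% of Myog-high cells. The members lay above the Myog-high cells in every library. Members also held fewer UMIs before thinning, and the part of free RNA in the droplets in these shares was not tested.

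Next in rank were Mgp, matrix Gla protein, an inhibitor of calcification, and Spp1, osteopontin, both secreted. Mgp stood at 3659.7, 3511, 1892 and 1912 CPM in members and at 639, 514, 205 and 167 CPM in the other cells, a log2 ratio of 2.51, 2.76, 3.17 and 3.47. Spp1 stood at 18471, 17796, 9994 and 8502 CPM in members, a log2 ratio of 2.29, 2.53, 2.78 and 2.96. Both were lower in aged than in young members, yet their ratio to the other cells was larger in the aged libraries. The other cells of the aged libraries held a larger part of Myog-high cells, and the effect of this on the ratios was not tested. Fn1, fibronectin, stood at 696, 701, 333 and 323 CPM. Igfbp7 (2132, 1997, 1847 and 1770.4 CPM) and Igfbp5 (2028, 2108, 5175 and 4854 CPM), both binding proteins of the insulin-like growth factor family, had log2 ratios of 2.05, 2.14, 2.52 and 2.92 and of 1.96, 2.15, 2.54 and 2.96.

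The list of fibrillar and basement membrane matrix genes had the same direction. Of its 30 genes that could be compared, 23 were at least 2 times higher in all 4 libraries and none was lower, with a median log2 ratio of 1.73 against 0.17 over all genes tested. Genes of oxidant and aldehyde defence were also present among the leading ones. Sod3, the extracellular superoxide dismutase, stood at 72.4, 64.99, 68.0 and 54.6 CPM, against 8.58, 8.99, 9.54 and 8.54 CPM in the other cells. Mgst1, a microsomal glutathione transferase, stood at 143, 129.7, 173 and 191 CPM, against 27.4, 25.7, 26.6 and 18.9 CPM. Of the 32 genes of glutathione and oxidant defence, 7 were at least 2 times higher and none lower, with a median of 0.78.

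Some receptors and effectors of Notch, the pathway linked to the stem cell state, were among the higher genes. Notch3 stood at 173, 174, 125 and 147 CPM in members, against 7.53, 7.74, 4.64 and 5.05 CPM in Myog-high cells. Heyl, a transcriptional repressor that Notch induces, stood at 163, 171, 146 and 138 CPM, against 19.3, 18.5, 8.61 and 9.58 CPM. Hes1, another such repressor, stood at 384, 402, 381 and 271 CPM, against 50.8, 42.2, 44.96 and 30.9 CPM. Of 17 Notch genes compared, 5 were higher by 2 times or more and 1 lower by as much than in the other cells, and the median log2 ratio was 0.76. Summed over the list, however, members held less: 1405, 1445, 1327 and 1217 CPM, against 1639, 1667, 1487 and 1418.5 CPM in the other cells. Vcam1, an adhesion molecule of muscle stem cells, stood at 94.7, 68.0, 44.2 and 43.4 CPM, high in young soft and lowest in the aged libraries.

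The lower genes were those of the contractile apparatus. Myl1, a myosin light chain, stood at 30.9, 21.8, 150.3 and 98.2 CPM in members, a log2 ratio of -7.74, -8.39, -6.36 and -7.15 to the other cells. Tnnc2, fast troponin C, stood at 12.7, 8.30, 29.6 and 35.5 CPM, a log2 ratio of -7.18, -7.69, -7.12 and -7.11. Of 39 sarcomere and contractile genes compared, 38 were at least 2 times lower in all 4 libraries, with a median log2 ratio of -5.20. Mef2c, a transcription factor of differentiating muscle, stood at 8.001, 5.76, 9.71 and 5.84 CPM in members and 1609, 1599.7, 1309 and 1324 CPM in Myog-high cells. Cdkn1a, the cyclin kinase inhibitor p21, which is induced in differentiating muscle cells, had log2 ratios of -3.62, -3.78, -2.51 and -2.51 to the other cells.

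**Figure D2:**
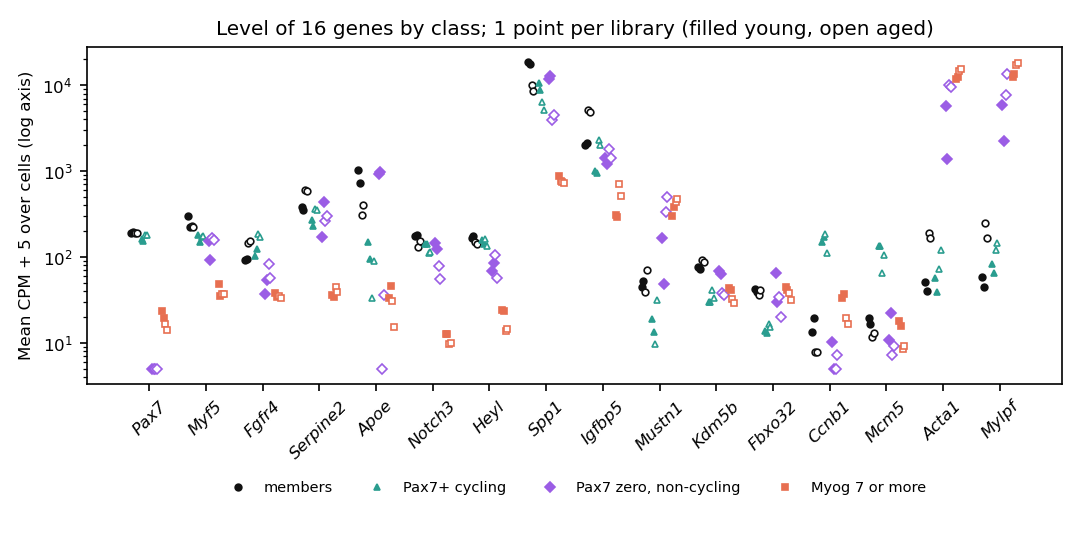
Mean CPM plus 5 (log axis) of 16 genes in members, Pax7-positive cycling cells, non-cycling cells with Pax7 at 0 and Myog-high cells; each point is 1 library, filled for young and open for aged. Apoe, Kdm5b and Fbxo32 lie higher in the members than in Pax7-positive cycling cells, whereas Pax7, Notch3 and Heyl lie at like levels in both.

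The promoters of the extreme genes were searched for binding motifs of factors that act in this lineage, in the RefSeq table of build GRCm38.p6, which covers 250 bases before to 50 after a start. The E-box CANNTG, the motif of Myod1, Myog and Myf5, reads the same on both strands. It was found in 15 of 17 promoters (88.2%) of the 12 genes lowest in members and in 11 of 19 promoters (57.9%) of the 12 genes among the 20 highest that have an entry, against 72.3% of all 32851 promoters. The motif of RBPJ, the DNA-binding partner of Notch, TGGGAA on either strand, was found in 2 of the 19 promoters of the highest genes (10.5%) and in 5 of 24 promoters of the Notch list (20.8%), against 25.6% of all promoters. The Notch list has entries for 19 genes, and none for Hes1, Hey1 and Heyl. The leading TG of the RBPJ motif can also end an E-box, so the motifs may share bases. A match is a string of letters and not a site of binding. The matches among the highest genes were in 1 of the 3 promoters of Apoe (chr7:19698373-19698402, minus strand) and 1 of the 3 of Gcnt2, a glycosyltransferase (chr13:40917653-40917682, plus strand). Both are shown because Apoe leads the genes that mark the members and no other promoter searched among those 12 genes held the motif, which is in capitals.
Apoe: taaacagaccttTGGGAAgagcgggtgctc
Gcnt2: tgcgaagtgcggTGGGAAagctgctaaact

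Pax7-positive cycling cells, 857 in all, share Pax7 RNA with the members, and the genes named in this comparison were chosen after their values were seen. Of 7146 genes, 75 (1.05%) were higher by 1.5 times or more in the members of all 4 libraries and 480 (6.72%) lower by as much. All 31 S phase genes and all 35 genes of G2 and mitosis that could be compared were lower, as the limits select. None of the satellite cell, Notch, fibroblast growth factor or myogenic factor lists had a gene past 1.5 times in all 4 libraries in either direction. Their median log2 ratios were 0.18, 0.10, 0.07 and 0.12. Of 31 matrix genes compared, 2 were higher by as much and 1 lower, with a median of 0.17. Of 22 sarcomere genes 0 were higher and 0 lower, with a median of -0.06. High matrix and low contractile RNA were thus mostly shared by the 2 Pax7-positive classes.

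The 75 genes higher in members included Apoe, at log2 ratios of 2.81, 2.93, 3.23 and 2.17. Kdm5b, a histone demethylase, stood at 71.8, 67.0, 87.2 and 81.5 CPM in members and at 25.1, 24.8, 36.7 and 28.7 CPM in cycling cells. Fbxo32, the ubiquitin ligase atrogin-1 that FoxO factors induce, stood at 37.1, 34.7, 31.3 and 35.8 CPM against 8.69, 7.90, 11.6 and 10.2 CPM. Mxd4, an antagonist of Myc, stood at 157, 179, 175 and 173 CPM against 66.1, 61.7, 92.9 and 92.2 CPM. In each of these 3 genes the lowest library mean in members lay above the highest library mean in cycling cells. This concerns library means and not single cells, and the genes were chosen for high ratios in all 4 libraries.

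Further genes were higher in members than in cycling cells when compared within each library. Igfbp5 had log2 ratios of 1.02, 1.14, 1.18 and 1.28. The nuclear RNA Malat1 had 0.91, 1.15, 1.15 and 1.03, and Mgst1 had 1.14, 0.94, 1.03 and 1.26. For Igfbp5 the lowest member mean (2028 CPM, young soft) lay below the highest cycling mean (2289 CPM, aged soft). Gpx3, the secreted glutathione peroxidase, stood at 942, 1067, 2599 and 2511 CPM in members against 387, 377, 1220.0 and 1346 CPM in cycling cells of the same libraries. Selenop, selenoprotein P, stood at 80.6, 67.9, 72.6 and 62.2 CPM against 32.6, 30.6, 31.9 and 29.3 CPM. Mustn1, expressed in the musculoskeletal system, stood at 39.5, 47.0, 34.5 and 65.3 CPM against 13.9, 8.50, 4.58 and 26.2 CPM, and at 295, 379, 434 and 473 CPM in Myog-high cells, so it was low in both Pax7-positive classes. Median depth was 33854.5, 27811, 26270 and 25655.5 UMIs in cycling cells, above that of the members in every library, and its part in these ratios was not tested.

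Non-cycling cells with Myog below 7 and no Pax7 UMI were only 79, between 13 and 24 in a library. Against them 107 of 7445 genes (1.44%) were at least 1.5 times higher in members of all 4 libraries and 189 (2.54%) lower. The lower ones were led by contractile genes, with 35 of the 39 sarcomere genes compared among them. Acta1, skeletal alpha-actin, stood at 45.8, 35.2, 186 and 161 CPM in members and at 5717, 1362, 10107 and 9648 CPM in the class without Pax7, which thus includes cells rich in contractile RNA despite Myog below 7. The higher ones, after Pax7 itself, included Ly6d, Prr9, Ly6a, Csrp2, the growth factor receptor Pdgfrb and Hey1, a Notch effector at 40.9, 39.4, 23.8 and 25.1 CPM in members and 0, 17.8, 2.39 and 8.97 CPM in the class without Pax7. Apoe was not among them, since that class had 917 and 959 CPM in the young libraries and 0 and 31.4 CPM in the aged ones. Leaving out a library moved these counts: 226 genes were higher without young soft, 519 higher and 366 lower without young stiff, and 164 higher without aged soft.

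The members were not uniform. Averaged over the 4 libraries, Myf5 stood at 211, 233 and 247 CPM in members with 1, 2 and at least 3 Pax7 UMIs, Fgfr4 at 94.0, 113 and 123 CPM, and Heyl at 125, 135 and 166 CPM. Single libraries did not all follow this order. Myf5 was lower with 2 than with 1 Pax7 UMI in aged soft (183 against 222 CPM). In both young libraries Myf5 and Fgfr4 were highest in members with 2 Pax7 UMIs. The groups with 1 and with 2 Pax7 UMIs held between 18 and 40 members in a library. In the same order of Pax7 UMIs, Acta1 stood at 39.97, 47.8 and 46.1 CPM in young soft and 36.6, 48.6 and 31.4 CPM in young stiff, and at 846, 73.5 and 54.4 CPM in aged soft and 433, 117 and 106 CPM in aged stiff. Its level was thus highest in members with a single Pax7 UMI in both aged libraries and in neither young one, and a single member gave 71.2% of the Acta1 level of aged soft. Members with some Myog RNA lay below those with none in all 4 libraries, by the mean over libraries, in Notch3 (119 against 168 CPM), Mgp (2069 against 2969 CPM) and Spp1 (10984 against 14719.5 CPM). Cdkn1a was higher in the members with Myog RNA of the aged libraries, at 407 and 396 against 257 and 234 CPM on soft and stiff, and not of the young ones, at 109 and 91.0 against 111 and 107 CPM.

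Age separated the members of the libraries on both substrates. On the soft substrate 238 of 6335 genes (3.76%) were higher by 1.5 times or more in aged members and 292 (4.61%) lower by as much. On the stiff substrate 261 of 6279 genes were higher (4.16%) and 228 lower (3.63%). Counts of list genes by age below are to be read beside these shares over all genes. The soft and stiff comparisons share no library. Across the 6056 genes measured in both, the log2 ratios had a Pearson correlation of 0.73 and a Spearman correlation of 0.61, given as a description since genes are not independent replicates. Of these genes 130 were higher in aged members on both substrates, which is 61.3% of those higher on soft and 57.5% of those higher on stiff, and 131 were lower on both (48.2% and 61.2%). There were 2 genes past 1.5 times in opposite directions. The median log2 ratio over all genes was -0.02 on soft and 0.01 on stiff.

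Among genes higher in aged members, Igfbp5 stood at 2028 and 2108 CPM in young soft and young stiff and at 5175 and 4854 CPM in aged soft and aged stiff. Over summed UMIs, aged members had 2.47 times (2.41 to 2.53) the young level on soft and 2.40 times (2.33 to 2.46) on stiff. It had a UMI in 97.7%, 98.5%, 99.2% and 99.2% of members, so the difference was one of level and not of the share of cells. In Pax7-positive cycling cells of the same libraries the log2 age ratio was 1.20 and 1.06, against 1.35 and 1.20 in the members. Gpx3 had log2 age ratios of 1.46 and 1.23 in members, and Gpx1, the cytosolic glutathione peroxidase, of 1.05 and 0.86.

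Cdkn1a, p21, stood at 111 and 105 CPM in young and 304 and 302 CPM in aged members, 2.57 times (2.31 to 2.86) on soft and 3.17 times (2.84 to 3.54) on stiff over summed UMIs. It had a UMI in 54.8% and 46.3% of young and 73.7% and 82.8% of aged members. In Pax7-positive cycling cells the log2 age ratio of Cdkn1a was 0.54 and 0.69, against 1.42 and 1.48 in members, a difference that was not tested. Other targets of p53 were also higher in aged members: Zmat3, an RNA-binding protein, by 0.90 and 0.94 and Ccng1, cyclin G1, by 0.85 and 0.79 in log2. Of the p53 and senescence list, 4 of 14 genes on soft and 6 of 15 on stiff were at least 1.5 times higher, with medians of 0.38 and 0.41. Over all genes 3.76% and 4.16% were higher by as much. Gadd45a, a damage-induced gene of the list, went the other way, with log2 ratios of -0.97 and -0.30. Cdkn2a, which encodes p16 and Arf, stood at 46.4, 39.7, 64.1 and 70.4 CPM, with log2 age ratios of 0.43 and 0.75, past 1.5 times on the stiff substrate alone.

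**Figure D3:**
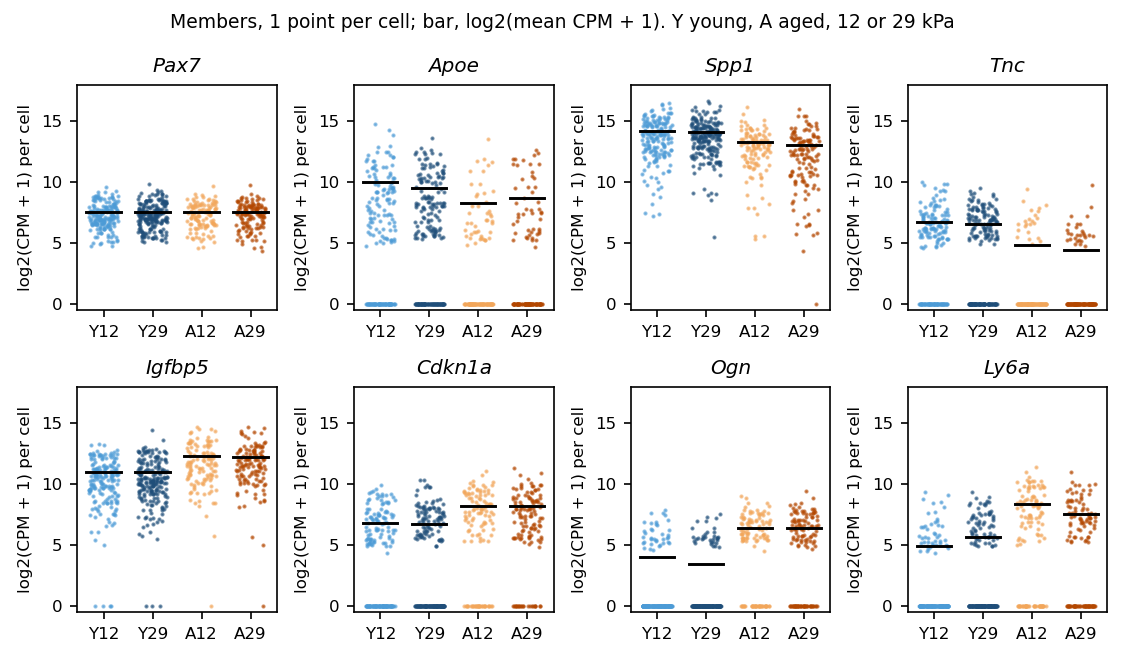
Level of 8 genes in each member, log2(CPM + 1), by library (Y young, A aged; 12 or 29 kPa); bars are log2 of the mean CPM plus 1. Pax7 lies at one level in all 4 libraries, Apoe, Spp1 and Tnc lie lower in aged members, and Igfbp5, Cdkn1a, Ogn and Ly6a lie higher.

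Surface antigens and interferon-linked genes were higher in aged members. Ly6a, the stem cell antigen Sca-1, stood at 29.0 and 49.5 CPM in young and 328 and 184 CPM in aged members, 9.44 times (8.04 to 11.1) on soft and 3.61 times (3.12 to 4.19) on stiff over summed UMIs. It had a UMI in 25.4% and 33.7% of young and 66.9% and 59.4% of aged members. Ifitm3, an interferon-induced membrane protein, stood at 283, 327, 802 and 686 CPM, and Bst2, tetherin, at 15.7, 13.4, 42.1 and 51.4 CPM. Of the MHC class I and interferon list, 8 of 12 genes on soft and 7 of 13 on stiff were at least 1.5 times higher and none was that much lower, with medians of 0.81 and 0.79. In the last 500 bases of their transcripts, 27.0% of the 30-base words of Ly6a and 29.3% of those of Ifitm3 occur in transcripts of other genes, so reads may have been split between near-identical copies and these 2 levels are uncertain.

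Some chemokines, which attract leukocytes, were higher in the aged members. Ccl7 stood at 25.3 and 23.2 CPM in young and 163 and 157 CPM in aged members, with a UMI in 16.4%, 16.6%, 38.1% and 51.6% of members. Ccl11, eotaxin, stood at 32.0, 11.5, 67.8 and 147 CPM, Ccl8 at 0.360, 0.714, 34.3 and 19.6 CPM and Ccl2 at 4.11, 1.64, 14.6 and 28.8 CPM. Both aged libraries lay above both young ones in all 4 genes, and the single highest member gave 19.8% of the Ccl8 level in aged soft. They belong to a list of secreted inflammatory factors that had no common direction: 3 of 10 genes were at least 1.5 times higher and 3 lower on soft, and 3 of 9 higher and 2 lower on stiff, with median log2 ratios of -0.31 and -0.28. The lower ones were Spp1 and Pgf, placental growth factor, on both substrates and Mif, a cytokine, on soft. Cx3cl1, a membrane-bound chemokine too low to be counted, stood at 18.9, 12.3, 6.36 and 6.62 CPM. Leukocyte markers summed to 4.36, 7.75, 9.15 and 12.9 CPM in the members, also higher in the aged, with Ptprc at 0 in every member, and their part was not tested.

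Ogn, the matrix proteoglycan osteoglycin, stood at 15.5 and 10.1 CPM in young and 85.8 and 87.0 CPM in aged members, and its share of members with a UMI was 20.9%, 16.1%, 69.5% and 66.4%. Thy1, a surface glycoprotein, stood at 4.97, 5.10, 44.3 and 40.2 CPM, with a UMI in 7.34%, 6.34%, 28.8% and 24.2% of members. Myl9, a smooth muscle myosin light chain, stood at 45.5, 76.1, 227 and 242 CPM. In Myog-high cells Ogn stood at 208, 165, 161 and 143 CPM, above the members at both ages and with the young libraries highest. Ogn and Thy1 are also found in fibroblasts, and the fibroblast list summed to 921, 892, 932 and 899.6 CPM in the members, with Lum at 0 throughout. Within that sum Col3a1, a fibrillar collagen, stood at 579, 549, 402 and 385 CPM and Gsn, the actin-severing protein gelsolin, at 334, 334, 484 and 483 CPM, so one was lower and the other higher with age. Of the 3 markers measured 2 were higher on each substrate, 1 of them by at least 1.5 times, with median log2 ratios of 0.53 and 0.53. The marker past 1.5 times was neither Col3a1 nor Gsn, so its rise with age is hidden in the flat sum. The part of these markers in the Ogn and Thy1 values was not tested. In Pax7-positive cycling cells the log2 age ratio of Ogn was 2.43 and 2.33 and that of Thy1 2.13 and 1.99, beside 2.15 and 2.60 and 2.30 and 2.16 in members.

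Several matrix genes were lower in aged members. Tnc, tenascin-C, stood at 107 and 91.6 CPM in young and 28.3 and 20.8 CPM in aged members, with a UMI in 63.3%, 56.6%, 19.5% and 21.9% of them. Col15a1, a basement membrane collagen, stood at 46.9 and 39.7 CPM in young and 1.36 and 4.62 CPM in aged members, the latter resting on 4 and 10 UMIs. Col5a3, a minor fibrillar collagen, stood at 82.2, 76.4, 19.3 and 22.2 CPM. Fn1 was at 0.483 times (0.448 to 0.519) the young level on soft and 0.432 times (0.402 to 0.465) on stiff. The list was not uniform: of 30 matrix genes 7 were at least 1.5 times lower and 4 higher on soft, and 8 lower and 2 higher of 30 on stiff, with medians of -0.24 and -0.21. Thbs2, thrombospondin-2, was one of the higher ones, at 29.0, 19.96, 47.4 and 72.9 CPM. In the other cells of the same libraries the medians of the matrix list were -0.72 and -0.90, so lower values with age were not particular to the members.

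Timp1, the inhibitor of matrix metalloproteinases, stood at 839.7, 1015, 334 and 339 CPM, and Serpinh1, the collagen chaperone, at 889, 936, 425 and 463 CPM. Spp1 was at 0.510 times (0.503 to 0.517) the young level on soft and 0.459 times (0.452 to 0.465) on stiff. Both aged libraries lay below both young ones in each. Dmp1, a secreted phosphoprotein of mineralised tissue, stood at 149 and 150.1 CPM in young and 13.6 and 13.9 CPM in aged members, log2 ratios of -3.05 and -3.03, beside -1.28 and -1.26 in Pax7-positive cycling cells. Apoe had log2 age ratios of -1.75 and -0.82, with a UMI in 62.7% and 62.0% of young and 38.1% and 38.3% of aged members. The highest single member gave 33.1% of the Apoe level in aged soft, and without the highest member of each library the log2 ratios were -2.08 and -0.87.

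Id4 and some genes of the TGF-beta, BMP and fibroblast growth factor lists were lower as well. Id4, an inhibitor of basic helix-loop-helix factors, stood at 64.3 and 61.7 CPM in young and 14.4 and 15.4 CPM in aged members. Tgfb1 stood at 209, 231, 117 and 106 CPM, and Smad7 and Smad6, inhibitors of TGF-beta and BMP signalling, at 173, 177, 96.8 and 97.1 CPM and at 35.6, 34.0, 18.5 and 17.5 CPM. Of the TGF-beta and BMP list, 6 of 18 genes on soft and 5 of 19 on stiff were at least 1.5 times lower, and 1 and 0 higher. Dusp6, the phosphatase that limits ERK, stood at 38.4, 33.9, 20.2 and 19.6 CPM and Sdc3, a syndecan that binds fibroblast growth factors, at 181, 156, 100.4 and 82.0 CPM. Of the fibroblast growth factor and feedback list, 3 of 16 genes on soft were lower by as much and 1 higher, and 4 of 16 on stiff were lower and 2 higher. Medians of the TGF-beta and BMP list were -0.23 and -0.28 in members and -0.47 and -0.60 in the other cells. Those of the fibroblast growth factor list were -0.26 and -0.36 in members and -0.53 and -0.52 in the other cells. Fgfr4 itself was higher with age, 1.69 times (1.45 to 1.96) on soft and 1.57 times (1.37 to 1.81) on stiff.

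Genes of the unfolded protein and integrated stress responses were lower nearly throughout. On each substrate 19 of 20 measured genes were lower in aged members, with medians of -0.52 and -0.51, and 8 and 5 of them were at least 1.5 times lower. Hsp90b1, the chaperone GRP94 of the endoplasmic reticulum, stood at 696, 714, 392 and 399 CPM. Ddit3, the transcription factor CHOP, stood at 27.8, 30.7, 12.6 and 12.7 CPM and Hyou1, another chaperone, at 36.3, 40.5, 21.3 and 26.2 CPM. In the other cells of the same libraries the medians of the list were -0.60 and -0.57.

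**Figure D4:**
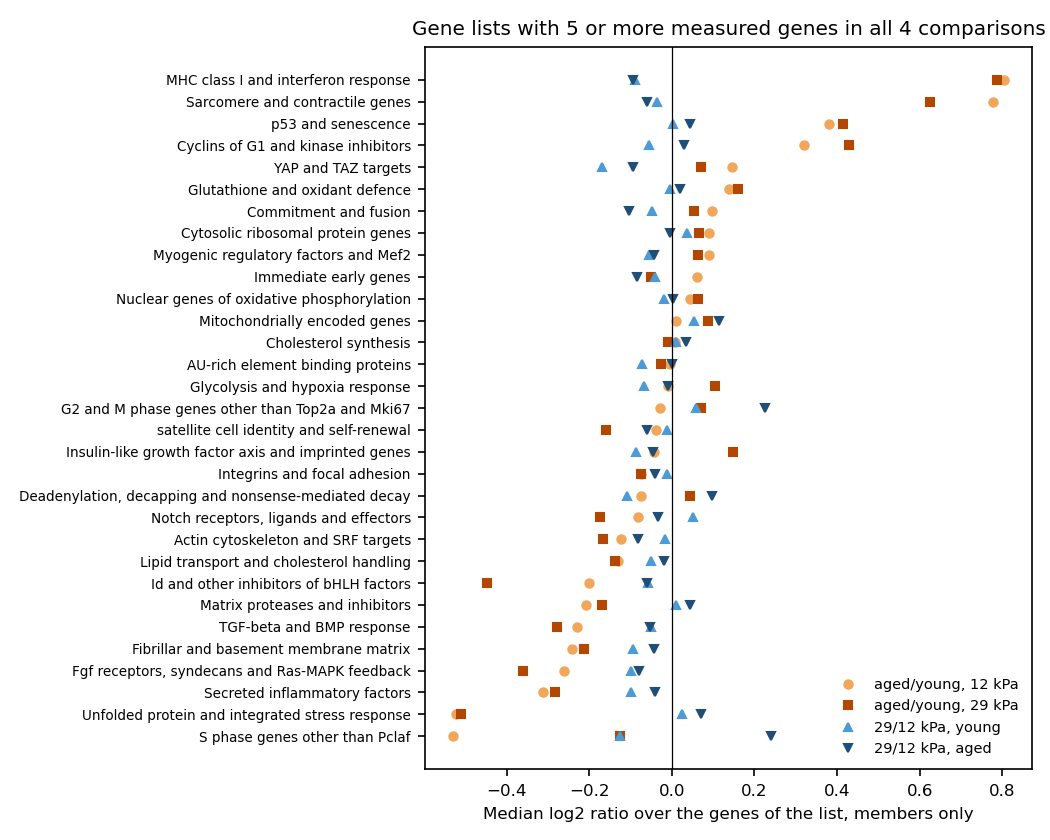
Median log2 ratio over each gene list in the members, for the 4 library comparisons; lists with at least 5 measured genes in every comparison. The MHC class I and interferon list (0.81 and 0.79) and the unfolded protein list (-0.52 and -0.51) lie far apart for age, and the stiffness medians of most lists lie near 0.

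Pax7 lay at one level in members of both ages, at 184, 189, 187 and 186 CPM, although the limit on Pax7 narrows what could be seen. Of the Notch list no gene was at least 1.5 times higher in aged members on either substrate. On soft 3 of 16 were lower: the ligands Jag1, at 26.2 CPM in young and 4.73 CPM in aged members, and Jag2, at 24.1 and 13.3 CPM, and the effector Hey1, at 40.9 and 23.8 CPM. On stiff 1 of 14, Jag2, was lower, at 26.9 and 15.3 CPM. The medians of the list were -0.08 and -0.17. Cytosolic ribosomal protein genes had 0 higher and 0 lower of 41 past 1.5 times on soft and 1 and 0 on stiff. Over all genes 3.76% were higher and 4.61% lower on soft, and 4.16% and 3.63% on stiff.

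Contractile genes were higher in aged members, partly through a few cells. Of 21 sarcomere genes measured on soft 15 were at least 1.5 times higher and 1 lower, and of 22 on stiff 12 were higher and 2 lower, with medians of 0.78 and 0.62. In the other cells the medians of the same genes were 0.60 and 0.67. In aged soft a single member gave 71.2% of the Acta1 level, 69.1% of Myl1 and 68.4% of Mylpf. Without the highest member of each library for each gene, 7 were higher on soft and 13 on stiff, and the log2 age ratio of Acta1 was 0.26 and 1.88, beside 1.91 and 2.05 with all members. Myog-high cells, the source of most contractile RNA, were 61.3%, 62.3%, 79.7% and 84.8% of the libraries' cells, and the part of their free RNA in these values was not tested.

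Fewer genes passed 1.5 times between the substrates than between the ages. Between young stiff and young soft 9 of 6193 genes (0.145%) were higher by 1.5 times or more on stiff and 25 (0.404%) lower. Between aged stiff and aged soft 47 of 6206 genes were higher (0.757%) and 47 lower (0.757%). These comparisons share no library, and across the 5841 genes measured in both the log2 ratios had a Pearson correlation of 0.01 and a Spearman correlation of 0.04, again as a description. Of these genes 1 was higher on stiff at both ages and 3 were lower at both, while 9 went in opposite directions. The counts move with the limits of the class, as 22 and 127 genes were higher on stiff in young and in aged members with Myog at 0.

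**Figure D5:**
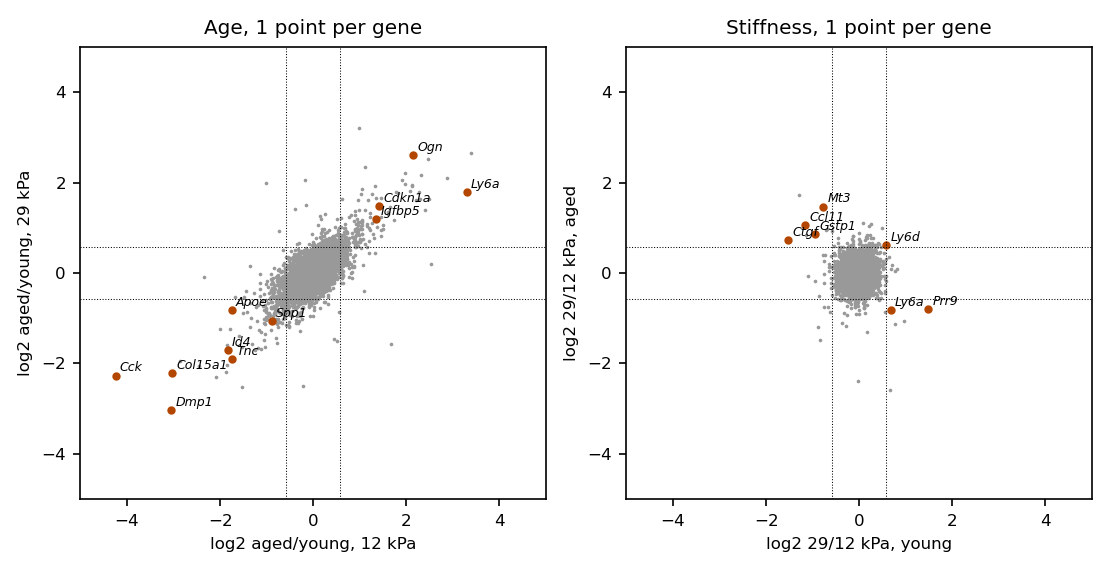
Log2 ratios between the members of 2 libraries, 1 point per gene: aged over young on stiff against soft (left), and stiff over soft in aged against young (right); dotted lines mark 1.5 times. The age ratios lie along the diagonal (Pearson 0.73), and the stiffness ratios form a round cloud (Pearson 0.01) with a few named genes off to the corners.

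The gene higher on stiff at both ages was Ctrb1, a chymotrypsinogen, at 69.2, 109, 32.3 and 51.5 CPM. A single member gave 36.5% of its level in aged stiff, and without the highest member of each library its log2 stiffness ratios were 0.57 and 0.19, beside 0.62 and 0.60 with all members. Ly6d, a Ly6 family antigen, had log2 stiffness ratios of 0.58 and 0.62 and stood at 97.9, 149, 136 and 212 CPM, just short of 1.5 times in the young and past it in the aged. Ntn4, netrin-4, was lower on stiff at both ages, at 49.1, 29.98, 29.9 and 14.1 CPM, 0.649 times (0.520 to 0.808) and 0.505 times (0.342 to 0.739) over summed UMIs. In Pax7-positive cycling cells the log2 stiffness ratios of Ntn4 were -0.43 and 0.16.

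Hes1 stood at 384, 402, 381 and 271 CPM, with log2 stiffness ratios of 0.07 and -0.48 in young and aged members and of 0.15 and -0.58 in Pax7-positive cycling cells. Lower Hes1 in aged stiff was thus present in both classes, short of 1.5 times in the members. Of the YAP and TAZ targets, which respond to mechanical signals, 0 of 16 genes were at least 1.5 times higher and 1 lower in young members, and 1 of 18 higher and 1 lower in aged members, with medians of -0.17 and -0.09. Integrin and focal adhesion genes had 0 higher and 0 lower of 23 in young members, and 0 and 0 of 22 in aged members. Genes of deadenylation, decapping and nonsense-mediated decay, which remove messenger RNA, had 0 higher and 0 lower of 32 in young members and 0 and 0 of 31 in aged members, with medians of -0.11 and 0.10. Over all genes 0.145% were higher and 0.404% lower in young members, and 0.757% each way in aged members. At such shares, lists of this size would hold few or no such genes, so these counts say little about any 1 list.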

How the data were processed

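Single-cell RNA was measured in 4 libraries, 1 per group, and the authors deposited 1 table per library of log2(CPM + 1) values per cell and gene, as the values show. Cell Ranger 6.1.2 and Partek are named per the submitters' processing notes, with no role stated. The genome build, the gene models and any earlier filters are not given in the sources used here. Each cell's UMIs were recovered from the step between its values: 99.953% to 99.956% of values were whole within 0.05, and 11 gene symbols that fell between whole counts were left out of the ranks. The result of 1 gene is not reported here. Doublets were neither called nor removed. Of 13772 genes, those with at least 20 CPM in either side of a comparison were kept, and ratios were taken of mean CPM plus 5. A gene counted as higher or lower at 2 times against the other cells and at 1.5 times otherwise. Ratios of summed UMIs have exact conditional binomial intervals. Computation used Python 3.11.15 with numpy 2.4.6, pandas 2.3.3, scipy 1.17.1 and matplotlib 3.10.9. The rule for calls between libraries was also run on simulated counts with changes of 2 times in genes from 50 CPM. Cells of a simulated group differed only by depth and counting error. That run therefore does not cover calls near 1.5 times or 20 CPM, or genes carried by few cells.

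The limits of the class, the gene lists and the rules were chosen with earlier results of these data known. The genes named were the core markers, those ranked highest and lowest in each comparison, and up to 5 per list with the largest ratio, from 31 lists and 7 marker lists. Genes named only against Pax7-positive cycling cells, and Col3a1, Gsn, Cx3cl1, Mif, Pgf, Mcm5, Ccnb1, Heyl and the other cell type markers, fall outside that rule. The alternatives were stricter limits, filters, another pseudocount, scaling, depth and leaving out a library. Promoters came from RefSeq on GRCm38.p6, and shared 30-base words were counted in the last 500 bases of transcripts.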

Additional observations from a re-analysis of the deposited data

Results flagged for a closer look

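In 6 named genes the stiff and soft libraries were ordered one way in the young members and the opposite way in the aged ones, each by at least 1.5 times. Each age had 1 library per substrate, so the difference between the ages was not tested. Values are log2 stiffness ratios, stiff over soft, for young and then aged members, and the aged ratio minus the young one.

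Gstp1, a glutathione transferase, stood at 162, 81.9, 122 and 226 CPM, with ratios of -0.94 and 0.87, a difference of 1.81 and -0.88 and 1.18 in Pax7-positive cycling cells. The order was thus the same in both Pax7-positive classes, and 42.4% of the 30-base words near the transcript end of Gstp1 also occur in other genes.

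For the other genes the cycling cells did not show the opposite directions at 1.5 times. Prr9, a proline-rich protein, stood at 29.7, 92.1, 24.8 and 12.2 CPM, with ratios of 1.49 and -0.79, a difference of -2.27 and 0.15 and -0.23 in cycling cells. Ly6a stood at 29.0, 49.5, 328 and 184 CPM, with ratios of 0.68 and -0.82, a difference of -1.50 and 0.21 and 0.04 in cycling cells. Ccl11 stood at 32.0, 11.5, 67.8 and 147 CPM, with ratios of -1.16 and 1.06, a difference of 2.23 and -1.07 and -0.36 in cycling cells. Ctgf, a matricellular protein, stood at 82.5, 25.5, 12.2 and 23.5 CPM, with ratios of -1.52 and 0.73 a difference of 2.25 and -0.60 and -0.05 in cycling cells. Its highest member gave 45.9% of the level in young soft and 50.9% in aged stiff. Mt3, a metallothionein, stood at 24.9, 12.5, 21.3 and 67.9 CPM, with ratios of -0.77 and 1.47, a difference of 2.24 and 0.00 and -0.64 in cycling cells, and it had a UMI in 6.78%, 4.88%, 8.47% and 15.6% of members. Prr9 had a UMI in 14.7%, 25.4%, 6.78% and 7.81% of members, so both rest on few cells.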

How the results depend on the processing

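No paired analysis was possible because each group was 1 library and the labels carry no shared replicate number. Counts of genes between libraries moved most. For stiffness in young members, 9 higher and 25 lower became 22 and 46 with Myog at 0, 23 and 43 with a pseudocount of 1, 4 and 10 from 50 CPM, and 53 and 107 with no filter; 18 were higher with at least 2 Pax7 UMIs and 14 with Pclaf at 0. In aged members, 47 and 47 became 127 and 148, 92 and 83, 12 and 10, and 175 and 185 under the same first 4 settings, and 75 were higher with at least 2 Pax7 UMIs. For age, 238 and 292 on soft became 142 and 136 from 50 CPM and 473 and 565 with no filter, and 261 and 228 on stiff became 134 and 110, and 542 and 468, where fewer or more genes were tested.

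Against non-cycling cells without Pax7, 107 higher became 172 with a pseudocount of 1, 61 from 50 CPM, 169 with UMIs summed over cells, and 154 to 519 when 1 library was left out, where 189 lower became 184 to 366. Against Pax7-positive cycling cells, 480 lower became 317 from 50 CPM, and against all other cells leaving out a library gave 434 to 511 higher and 481 to 493 lower. The shares of members lay outside the counting interval under stricter limits, which leave fewer members: with Myog at 0 they were 9.04%, 12.0%, 6.08% and 4.26%, with Pclaf at 0 10.7% in young soft and 12.0% in young stiff, and with at least 2 Pax7 UMIs 11.1% in young stiff and 6.15% in aged stiff.

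Of 10803 recomputed ratios of named genes, 10379 stayed within the counting interval or the spread between libraries, which can be wide for low genes. A further 402 moved by more, and 22 changed sign from a main ratio of at least 1.5 times. Sign changes of smaller ratios are not among the 22. With at least 2 Pax7 UMIs the aged stiffness log2 ratio was 0.90 for Myl1, 0.21 for Tnnt3, 0.42 for Myh1, 0.15 for Ttn and 0.71 for Myl4, the age ratio on soft was -0.090 for Mb and -0.46 for Ttn, and that on stiff was 0.43 for Dqx1. With Myog at 0 the aged stiffness ratio of Ctrb1 was -0.039. Alternatives chosen after seeing the data gave, without the highest member, 0.78 for Myl1, 0.14 for Tnnt3, 0.59 for Myh1, 0.43 for Ttn and 0.79 for Myl4 in aged stiffness and -0.075 for Ttn in age on soft. Among members with under 10000 CPM of sarcomere genes, aged stiffness ratios were 0.67 for Myl1, 0.25 for Tnnt3, 0.50 for Myh1, 0.44 for Myl4, -0.042 for Ctrb1 and -0.011 for Ctgf, and age on soft was -0.35 for Ttn. Beyond these constructions the cause was not tested. A gene near 20 CPM rests on few UMIs, so small differences were not detectable at this depth.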

Other observations

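Immediate early genes did not share a direction with age inside the class. On soft 4 of 17 were at least 1.5 times higher in aged members and 2 lower, and on stiff 3 of 16 higher and 4 lower. Socs3, a feedback inhibitor of cytokine signalling, stood at 21.5, 18.7, 61.6 and 84.7 CPM, with both aged libraries above both young ones. Egr3, a transcription factor induced by growth factors, stood at 61.3, 46.7, 17.1 and 14.8 CPM, in the opposite order.

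In the insulin-like growth factor axis, Igfbp5 was joined by Mest, an imprinted gene, at 58.9, 33.1, 126 and 123 CPM, with log2 age ratios of 1.03 and 1.75. Igf1 itself stood at 62.6, 53.6, 24.9 and 19.4 CPM, lower with age at -1.18 and -1.26. Fabp5, a fatty acid binding protein, stood at 21.7, 30.1, 59.6 and 58.7 CPM, and Hmgcs1, an enzyme of cholesterol synthesis, at 87.0, 87.9, 51.8 and 50.97 CPM, while 2 of 18 genes of that pathway were lower and 0 higher by at least 1.5 times on soft, beside 4.61% and 3.76% of all genes. On stiff 1 of 16 was lower and 1 higher, beside 3.63% and 4.16% of all genes, with pathway medians of 0.0074 and -0.0083 on soft and stiff. Nuclear genes of oxidative phosphorylation had 0 of 38 past 1.5 times in either direction on each substrate. All these comparisons rest on 1 library per group.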
